A study of Bos taurus with 2 samples.

Results

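The SLC25 genes encode the mitochondrial solute carriers, and 85 probes for 43 of them were read in mammary tissue, on 1 array for mastitis and 1 for the normal gland. The members were all gene probes whose name in the files, or whose current symbol through the RefSeq accession of the probe, begins with SLC25A. They were 43 of the 17376 named genes and 85 of the 43653 gene probes on the array, and 38 of them were among the 12473 genes measured on both arrays. Both tissues came from female Chinese Holstein cows in late lactation, none of them given recombinant bovine somatotropin. By the study's methods antibiotics were given to the cows with mastitis but not to the healthy ones, and disease and antibiotics cannot be told apart. The study describes 3 cows in each condition, and the cow or cows behind each of the arrays are not named in the sources used here. Since each condition had 1 array, no difference below could be checked in replicates and p-values are left out.

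Most but not all carriers of this family sit in the inner mitochondrial membrane. There they move nucleotides, phosphate, carboxylates, amino acids, cofactors and metal ions between the matrix and the cytosol. The ADP/ATP carriers export the ATP made by oxidative phosphorylation, and the phosphate carrier brings in the phosphate from which that ATP is made. In the lactating gland the export of citrate from mitochondria feeds milk citrate. The amino acid carriers connect the urea cycle, proline synthesis and the malate-aspartate shuttle with the matrix.

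A net signal (written as net below, mastitis before normal where both arrays are given as a pair) is the intensity of a probe after the mean of the negative control spots was taken off. A probe was called measured where its net signal was above 7.10 on the mastitis array or 8.74 on the normal array and the spot was not flagged as missing by the scanner software. Each net signal was divided by the 75th percentile of its array, which was a net signal of 210 for mastitis against 128 for the normal gland. A gene's log2 ratio averages mastitis over normal across the measured probes, and the SD over probes given beside it is technical. Across all measured genes the median log2 ratio stood at -0.15, and it moved to 0.08 with scaling on 7 spike-in probes and to 0.57 with no scaling, so the carriers are also described relative to that median. Markers were read beside the tissue label. All 12 luminal epithelial markers, EPCAM and KRT8 among them, were measured on both arrays, and so were 6 of 7 milk genes. These 6 milk genes were all at least 2-fold lower in mastitis. At the brightest probe CSN3 read 11920 and 65510 net, PAEP 11 and 61500 net, and GLYCAM1 32 and 48280 net. LALBA, at 2 net in mastitis tissue, was measured on the normal array alone.

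Of the 85 probes for SLC25 genes, 68 were measured on both arrays, which is 80.0% against 63.9% of all gene probes. On the mastitis array alone 4 were measured, on the normal array alone 1, and on neither 12. No probe of the family had 50% or more of its pixels saturated, and only the SLC25A31 spot of the normal array had any, at 5%. The brightest was a probe for SLC25A6, at 13270 net in mastitis tissue and 11080 net in normal tissue. SLC25A2, SLC25A35 and SLC25A53 had no probe measured on either array.

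**Figure D1:**
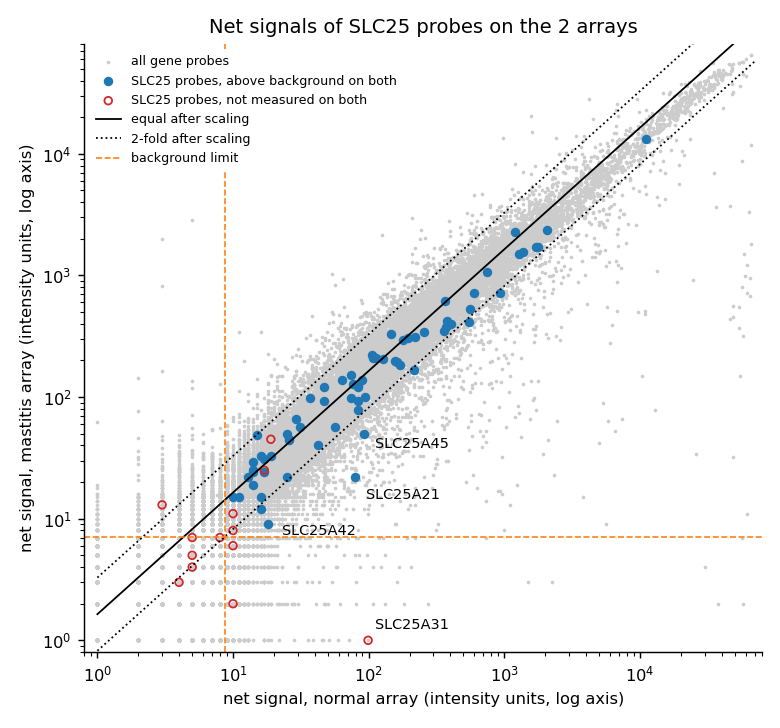
Net signal on the mastitis array (vertical) against the normal array (horizontal) for each gene probe, in intensity units on log axes, with SLC25 probes measured on both arrays in blue and the others as red rings (net signals under 1 are left out). Most SLC25 probes lie between the dotted 2-fold lines, the labelled probes of SLC25A21, SLC25A42 and SLC25A45 are among the few below them (the lines are drawn for the scaled signals, so equal genes lie off the plain diagonal), and the SLC25A31 probe sits at 1 against 99.

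The family was not set apart from the other genes as a whole. Its 38 genes measured on both arrays had a median log2 ratio of -0.21, which was 0.07 under the median of all genes, with quartiles of -0.68 and 0.17 against -0.52 and 0.20 for all genes. The log2 ratio was below 0 for 25 carriers and above 0 for 13, and within 0.5 of 0 for 57.9% of the carriers against 63.6% of all genes. On the mastitis side 4 of the 38 were lower by 2-fold or more, or 10.5%, where 9.12% of all measured genes were. At least 2-fold higher was none of the 38, where 2.29% of all measured genes were. At this threshold both shares lie near those of all genes. Among the 18 carriers with several measured probes the pooled SD over probes was 0.22 on the log2 scale, against 0.45 over all genes and 0.16 between replicate spots of the same probe. The other 20 carriers rest on 1 measured probe each.

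**Figure D2:**
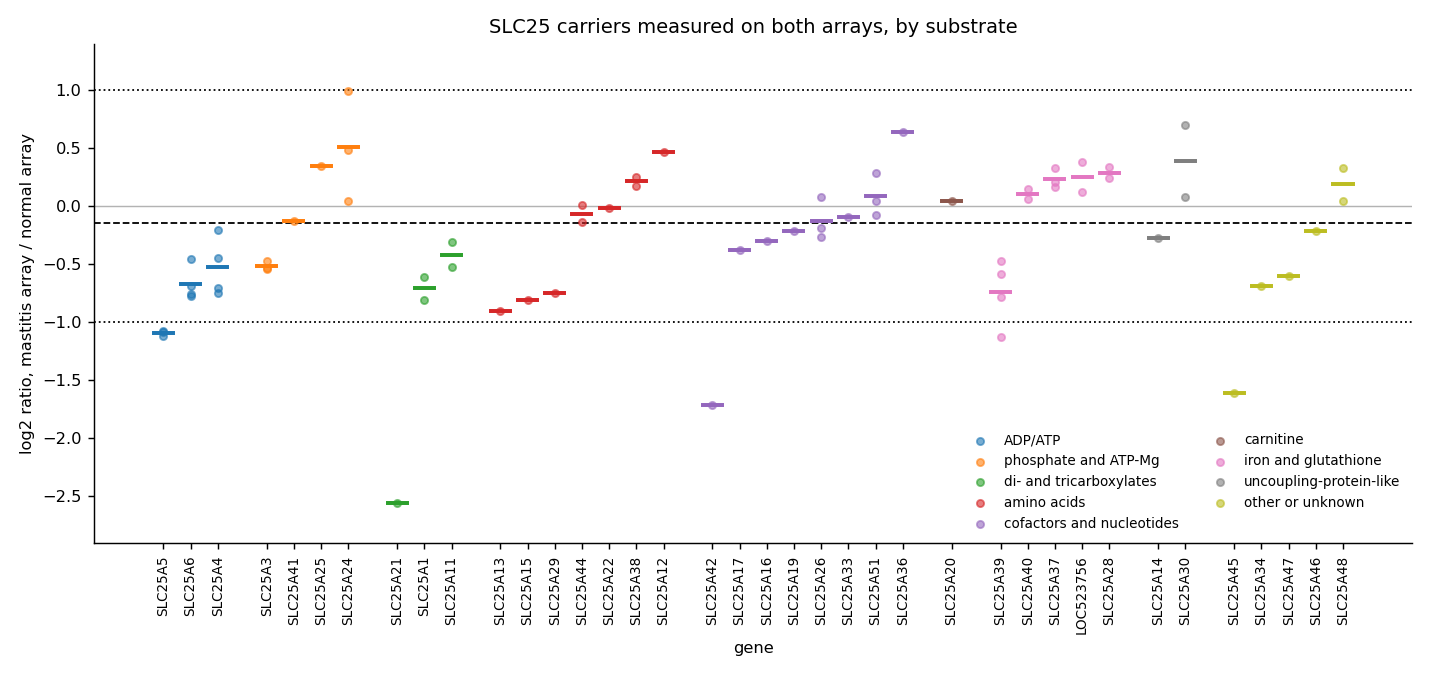
Log2 ratio of mastitis to normal for each of the 38 SLC25 genes measured on both arrays, grouped by substrate, with points for single probes and bars for the mean of a gene. A dashed line marks the all-gene median (-0.15), the dotted lines mark 2-fold, and the bars of SLC25A21, SLC25A42, SLC25A45 and SLC25A5 lie below the lower dotted line.

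The 3 ADP/ATP carriers measured on both arrays were lower in mastitis, although 2 of them read just above 0 with no scaling. SLC25A5 encodes the ADP/ATP carrier known from proliferating cells, and its 3 probes read 416, 720 and 167 net in mastitis tissue and 552, 926 and 215 net in normal tissue. After scaling this was 2.13-fold lower in mastitis (log2 ratio -1.09, SD over probes 0.03), or 1.93-fold lower relative to the median of all genes. The 3 log2 ratios lay between -1.12 and -1.08, so the probes differed from each other by far less than they differed from 0. This is just past the 2-fold mark, and the gene was within 2-fold in 5 of 14 other settings, among them at log2 ratios of -0.94 after scaling by the median, -0.86 on the spike-in probes, -0.87 with the normexp background correction and -0.38 with no scaling. Here and below the other settings leave out the deposited table of log2 values read row by row, whose values followed the next probe and not the probe named in the row.

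SLC25A6 encodes the form found in most tissues and had a log2 ratio of -0.67 (SD 0.15, 4 probes). SLC25A4, the form of heart and skeletal muscle, had one of -0.52 (SD 0.25, 4 probes). All 11 probes of these 3 genes lay below the median of all genes, and no probe of SLC25A5 overlapped a probe of the other 2 genes, whose probes ranged from -0.78 to -0.20 and overlapped each other. With no scaling the log2 ratios of SLC25A4 and SLC25A6 were 0.19 and 0.05, under the all-gene median of 0.57. The ADP/ATP carriers share much of their sequence, and whether their probes share signal was not tested.

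SLC25A31, the ADP/ATP carrier of the testis, was measured on the normal array alone: its 1 probe read 99 net in normal tissue and 1 net in mastitis tissue, where it was not above background. Against the dimmest measured signal of the mastitis array this is at least 20.3-fold lower there. The bound was 12.4-fold with no scaling, 3.49-fold with the normexp correction and 2.93-fold with normexp and quantile normalization together. It rests on 1 spot per array, and 5% of the pixels of the normal spot were saturated although its net signal was only 99. No second probe for the gene was on the array.

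The phosphate carriers went different ways. SLC25A3, the main phosphate carrier of the inner membrane, had a log2 ratio of -0.51 (SD 0.04), with 3 probes between -0.54 and -0.47. The calcium-regulated carriers that trade ATP-Mg for phosphate were on the other side: SLC25A24 had a log2 ratio of 0.51 (SD 0.47, 3 probes) and SLC25A25 one of 0.35 from 1 probe. The 3 probes of SLC25A24 read 0.05, 0.49 and 0.99, a wider spread than in any other carrier. A further probe of the gene was measured on the mastitis array alone. SLC25A41 was dim on both arrays, at net signals of 15 and 10, and had a log2 ratio of -0.13.

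The largest ratio of the family was that of a carboxylate carrier. SLC25A21 moves 2-oxoadipate and related acids formed in the breakdown of lysine and tryptophan, and 1 of its 2 probes was measured, at 22 net in mastitis tissue and 79 net in normal tissue. After scaling this was 5.89-fold lower in mastitis (log2 ratio -2.56), and 1.09% of all genes had a ratio as low or lower. The second probe, at 7 and 8, was not above background on either array, so the value rests on 1 probe. It stayed at least 2-fold lower in all 13 other settings that gave a value, at a log2 ratio between -2.56 and -1.08.

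The citrate carrier SLC25A1, which exports citrate from mitochondria, read 101 and 78 net in mastitis tissue and 94 and 83 net in normal tissue. Its log2 ratio was -0.71, with 2 probes at -0.61 and -0.80. SLC25A11, the oxoglutarate carrier of the malate-aspartate shuttle, had a log2 ratio of -0.42 from 2 probes at -0.52 and -0.31. The 5 measured probes of the 3 carboxylate carriers within the rule were all below the median of all genes. A probe outside the rule, matched to the dicarboxylate carrier SLC25A10 by best sequence hit, lay above that median at 0.04.

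Among the amino acid carriers, the aspartate-glutamate pair lay apart. SLC25A12 and SLC25A13 are both aspartate-glutamate exchangers of the malate-aspartate shuttle. SLC25A12 read 66 net in mastitis tissue and 29 net in normal tissue, a log2 ratio of 0.47. SLC25A13 had net signals of 22 and 25 at its only measured probe, a log2 ratio of -0.90. The 2 ratios lie on opposite sides of the all-gene median, each from a single probe, and did so in all 13 other settings that gave both.

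SLC25A15, the ornithine carrier of the urea cycle, read -0.81 from a dim probe with net signals of 15 and 16. SLC25A29, a carrier of basic amino acids, read -0.75 from a probe at 398 and 407. Among the rest, the glycine carrier SLC25A38, which serves haem synthesis, had a log2 ratio of 0.22 (SD 0.05, 2 probes). The glutamate carrier SLC25A22 had one of -0.02, and SLC25A44, a carrier of branched-chain amino acids, one of -0.06 from 2 probes that differed in sign. None of the 7 measured amino acid carriers was 2-fold apart, and their median lay 0.08 above that of all genes.

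The iron carriers were slightly higher in mastitis, although 2 of the 3 read just below 0 with the normexp correction. SLC25A37, mitoferrin 1, brings iron into the mitochondria of developing red cells, and its 3 probes read 2273, 57 and 33 net in mastitis tissue and 1196, 31 and 16 net in normal tissue. Its log2 ratio was 0.24 (SD 0.09). SLC25A28, mitoferrin 2, is the form of other tissues and had a log2 ratio of 0.29 (SD 0.06, 2 probes). LOC523756, whose probes carry the name SLC25A37 in the files, had one of 0.25 (SD 0.18, 2 probes).

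Each of these 7 probes lay above 0, and each of the 3 genes was within 2-fold. With the normexp correction the log2 ratios of SLC25A37, SLC25A28 and LOC523756 were 0.004, -0.03 and -0.07, beside an all-gene median of -0.20. The likely glutathione carriers in the same group differed: SLC25A39 had a log2 ratio of -0.74 (SD 0.29), with 4 probes between -1.13 and -0.47, and SLC25A40 one of 0.11 from 2 probes at 0.06 and 0.15. The probes of these 2 genes did not overlap.

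Most cofactor and nucleotide carriers were close to the median of all genes. The exception past 2-fold was SLC25A42, which carries coenzyme A. Its only probe read 9 net in mastitis tissue and 18 net in normal tissue, a log2 ratio of -1.71 or 3.28-fold lower. The mastitis signal is only just above the background limit of 7.10, and with the normexp correction the log2 ratio was -0.70, and -0.26 with normexp and quantile normalization together. SLC25A36, a pyrimidine nucleotide carrier, had the highest ratio of the family, with net signals of 120 and 47 and a log2 ratio of 0.64. The other 6 of this group lay between -0.38 and 0.09, and among them SLC25A26, which carries S-adenosylmethionine, and the NAD carrier SLC25A51 had probes that differed in sign.

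The remaining carriers held 1 more gene past 2-fold. SLC25A45, whose substrate is less settled, read 50 net in mastitis tissue and 93 net in normal tissue, a log2 ratio of -1.61 or 3.05-fold lower, from 1 of its 2 probes. It was within 2-fold with no scaling, at -0.90, and with normexp and quantile normalization together, at -0.86. The other 4 measured genes of uncertain substrate lay between -0.69 and 0.19. The lowest of them, SLC25A34, rests on 1 of its 2 probes and read -0.08 with spots not found kept. The carnitine-acylcarnitine carrier SLC25A20, which brings fatty acids to beta-oxidation, was nearly level, with net signals of 620 and 366 and a log2 ratio of 0.05. Of the carriers related to uncoupling proteins, SLC25A30 had a log2 ratio of 0.39 (SD 0.44, 2 probes) and SLC25A14 one of -0.27. SLC25A27 was measured on the mastitis array alone, at a net signal of 13 against 3, which is too dim for a bound on the fold.

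**Figure D3:**
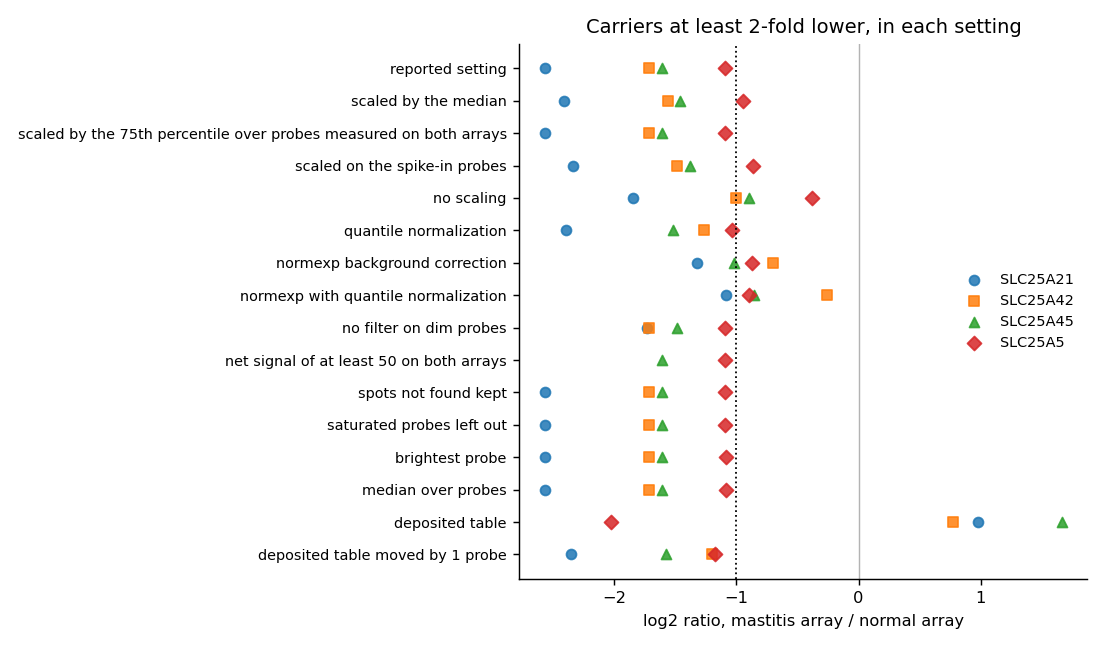
Log2 ratio of mastitis to normal of the 4 carriers at least 2-fold lower, in the reported setting and in each other setting that gave a value, with the dotted line at 2-fold lower. SLC25A21 stays left of that line in all settings but the deposited table read row by row, and SLC25A5 lies on either side of it.

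Set against all genes, the medians of several substrate groups stayed on the same side in the other settings, among them the ADP/ATP, carboxylate and iron and glutathione groups. The median of the ADP/ATP carriers lay 0.52 under that of all genes and between -0.66 and -0.30 relative to it in 14 other settings. For the carboxylate carriers it was -0.56, with a range of -0.68 to -0.32, and for the iron and glutathione group 0.38, with a range of 0.13 to 0.54. The phosphate and ATP-Mg group (0.09 to 0.33), the carnitine carrier (0.06 to 0.35) and the carriers of uncertain substrate (-0.62 to -0.06) also kept their side. Ranges of the amino acid, cofactor and nucleotide, and uncoupling-protein groups included both signs. For the 38 carriers together the difference from all genes ranged from -0.16 to 0.01 and so included both signs. These ranges describe the same pair of arrays and carry no information on other cows.

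Genes that work beside the carriers were read from lists of mitochondrial function. Among other transport proteins of the inner membrane 4 of 14 were lower by 2-fold or more, none was higher by that much, beside 9.12% and 2.29% of all measured genes, with a median log2 ratio of -0.32. MCU, the pore of the calcium uniporter, had net signals of 99 and 235, a log2 ratio of -1.96. MPC1 and MPC2 form the pyruvate carrier and read -1.34, with net signals of 1420 and 2189, and -1.49, with net signals of 553 and 947, from 1 measured probe each. LETM1, an ion exchanger, read -1.04 (SD 0.40, 3 probes) and was within 2-fold in 7 of 14 other settings.

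The enzymes of arginine, ornithine and proline metabolism, which use the substrates of SLC25A15 and SLC25A29, had a median log2 ratio of -0.61, and 10 of the 11 measured lay below the median of all genes. At least 2-fold lower were 3 of them, beside 9.12% of all measured genes. PYCR1, a mitochondrial enzyme of proline synthesis, read -2.28 from 1 probe with net signals of 137 and 405. ARG2, the mitochondrial arginase, read -2.23 (SD 0.12, 2 probes), with 68 and 206 at its brightest probe. ASS1, which makes argininosuccinate, read -1.36 (SD 0.22, 4 probes) and was within 2-fold with no scaling (-0.65), with normexp (-0.89) and with normexp and quantile normalization together (-0.70).

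Among 15 enzymes of citrate, malate and aspartate metabolism, the partners of SLC25A1, SLC25A11, SLC25A12 and SLC25A13, the median was -0.46. Beside 9.12% of all measured genes, 1 of them was at least 2-fold lower. This was PC, pyruvate carboxylase, at -1.27 (SD 0.28, 2 probes), and it was within 2-fold with no scaling (-0.56), with normexp (-0.96) and with normexp and quantile normalization together (-0.94). The highest was the cytosolic transaminase GOT1 at 0.27. The probes of ACLY, which splits citrate, disagreed (log2 ratio -0.14, SD 0.78, 4 probes).

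The other lists lay closer to all genes. Of 11 genes of carnitine and fatty acid oxidation, 1 was lower, the carnitine acetyltransferase CRAT at -1.14 (SD 0.01, 2 probes), which was within 2-fold in 5 of 14 other settings, and the median was -0.08. Of 11 haem and iron genes none was 2-fold apart, from the transferrin receptor TFRC at -0.80 to the haem enzyme UROS at 0.75, and the erythroid enzyme ALAS2 was measured on the mastitis array alone. Of 19 genes of the outer membrane and of carrier import none was 2-fold apart, between the TIM22 subunit TIMM29 at -0.81 and the chaperone TIMM10 at 0.38. Of 9 regulators of mitochondrial biogenesis 1 was lower, the nuclear receptor ESRRA at -1.08 (SD 0.03, 2 probes), which was within 2-fold in 7 of 14 other settings. PPARGC1A, the coactivator that works with it, read 0.96 from a dim probe with net signals of 32 and 10, and between -0.78 with no filter on dim probes and 1.68 with no scaling, so its direction is not settled. Members of the carrier family that go by other names were within 2-fold: MTCH1 read 0.01, UCP2 read -0.20 and MTCH2 read -0.61, and UCP1 and UCP3 were not measured on either array.

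**Figure D4:**
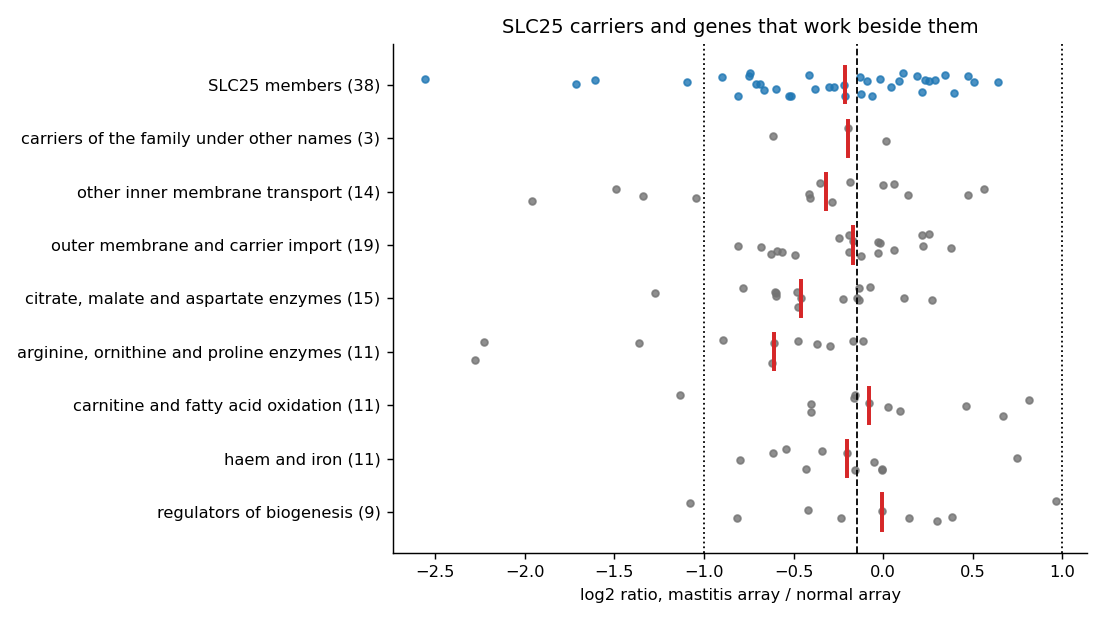
Log2 ratio of mastitis to normal of the SLC25 genes (blue) and of the genes of 8 mitochondrial lists (grey), with the number of measured genes in brackets and red bars at the medians. The arginine, ornithine and proline list has the lowest median, -0.61, and the SLC25 median of -0.21 lies near the dashed all-gene median of -0.15.

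Several lists of cell type markers differed between the same 2 arrays. Of all measured genes 9.12% were at least 2-fold lower in mastitis and 2.29% at least 2-fold higher. In these bulk samples fewer cells of a type and less RNA per cell cannot be told apart. All 6 milk genes measured on both arrays were lower in mastitis by 2-fold or more, their summed scaled signal was 8452 against 334000, and LALBA was measured on the normal array alone. Such a sum takes the brightest probe of each listed gene on the array, measured or not, so a few bright genes can lead it. Of 12 luminal epithelial markers 2 were lower, MUC1 and ELF5, and the median was 0.04. The luminal sum was 14760 against 24600. At their brightest probes MUC1 read 513 and 6798 net and ELF5 2429 and 6865 net, and the other 10 markers were within 2-fold. Neutrophil markers were lower in 6 of 7, with sums of 1607 against 4563. Of the 3 erythroid markers measured on both arrays HBB was higher and none was lower, with sums of 5526 against 4689. HBA was the brightest of them, at 10390 and 5857 net. Of 6 macrophage markers CD163 and MRC1 were higher and none was lower, with a median of 0.67 and sums of 2862 against 2295. The endothelial list had a median of 0.44 and sums of 1740 against 1238. The fibroblast list was mixed, with a median of 0.49, FBLN1 2.82-fold higher and COL3A1 2.13-fold lower. Its sums were 11040 against 7259, with DCN the brightest at 14090 and 3882 net. Of the muscle markers 4 of 7 were measured on both arrays and none of them was 2-fold apart. Of the 3 adipocyte markers measured on both, LEP and CIDEC were lower from dim probes, with a list median of -1.61. Of 6 B and plasma cell markers MZB1 and MS4A1 were lower, with a median of -0.41. MS4A1 rests on 1 of its 2 probes. Its brightest probe, not measured on both arrays, went the other way, at 35 and 9 net. None of 8 T and NK cell markers was 2-fold apart, with a median of 0.03. The part of these cells in the ratios of the carriers was not tested.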

How the data were processed

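The authors deposited, per spot of each single-colour array, the intensity in the green (Cy3) channel less the mean of the negative controls, with no scaling between arrays, and the percent of saturated pixels. The authors also deposited log2 values in a table whose making is not stated in the sources used here, with column medians of 4.34 for mastitis and 4.29 for normal. Across probes its mastitis column correlated with the scanner values of its own rows at a Spearman rho of 0.10 and with those of the following probe at 1.00, so it served only as an alternative, as it stands and with its rows moved by 1 probe. The file headers name GenePix Pro 6.1 and an Agilent array, the submitters' processing notes Agilent Feature Extraction, and the methods an Affymetrix chip. The labels name a miRNeasy kit and the methods Trizol.

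Spots of a probe were averaged and control spots left out. The background limit was 2.6 SD above the mean of 153 negative controls. Signals were divided by the 75th percentile of their array, and a gene was given the mean log2 ratio of those probes that both arrays measured, with no pseudocount. A call is a difference of at least 2-fold. With 1 array per condition no test was possible, and that number limits the precision. For a gene measured on 1 array alone, its signal was set against the dimmest signal that passed the background limit on the other array (8 net for mastitis, 9 net for normal), or against the dim probe itself where that was higher.

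Probes were named from their accession, then symbol, through a RefSeq gene table used for names only. Of the probes of the family, 77 were named by accession and 8 by symbol, and 42 of the 46 SLC25A symbols in that table have a probe. The 4 probes of SLC25A51 and SLC25A53 carry the older names MCART1 and MCART6 in the files.

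The members and the lists were chosen with earlier results of these data known, and the lists were written from textbook knowledge. Any carrier could be named, with those past 2-fold or with a bound given in full, and of each partner list at most 4 genes past 2-fold, or else the highest and the lowest. ALAS2, ACLY, GOT1, HADHB and PPARGC1A, the list members under other names, and the markers were named outside that rule, after their values were seen. The alternatives are scaling by the median, by the 75th percentile over probes measured on both arrays, on 7 spike-in probes or not at all, quantile normalization, the normexp correction (offset 50, limma 3.58.1 in R 4.3.3) alone and with quantile normalization, no filter on dim probes, a net signal of at least 50, spots not found kept, saturated probes left out, the brightest or the median probe, names by accession only or by the files only, thresholds of 1.5-fold and 3-fold, and the deposited table. The ranges over other settings leave out the naming rules and the table row by row. The scripts were tested on simulated data and used matplotlib 3.10.9, scipy 1.17.1, pandas 2.3.3 and numpy 2.4.6 in Python 3.11.15.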

Additional observations from a re-analysis of the deposited data

How the results depend on the processing

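The number of carriers at least 2-fold lower was 4 of 38 in the reported setting, beside 9.12% of all genes. It was 2 with no scaling (5.26% of carriers, 2.65% of all genes) and 2 with the normexp background correction (5.26% and 3.28%). With normexp and quantile normalization together it was 1 (2.63% and 2.75%), and with no filter on dim probes 7 of 43 (16.3% and 22.7%). Where both arrays had to reach a net signal of 50 it was 2 of 27 (7.41% and 6.14%). At a threshold of 1.5-fold 12 of 38 were lower (21.6% of all genes), and at 3-fold 3 of 38 (3.3% of all genes). The number at least 2-fold higher was 0 and became 6 with no scaling (15.8% of carriers, 20.2% of all genes), 1 with no filter on dim probes (2.33% and 2.88%), 1 at 1.5-fold (7.78% of all genes) and 4 with the deposited table row by row (10.5% and 12.3%). The family's median of -0.21 became 0.0167 on the spike-in probes, 0.50 with no scaling, -0.0473 with quantile normalization, -0.0311 with normexp and quantile normalization, and -0.05 with the deposited table moved by 1 probe. Its difference from the median of all genes, -0.07, became -0.24 with the deposited table row by row. That table also turned the sign of SLC25A21 (0.98), SLC25A42 (0.77), SLC25A45 (1.66) and MPC2 (0.20), and its values followed the next probe. What moved the values in the other settings was not tested, apart from the filters, which change the genes counted, and the thresholds.

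Signal over background limits SLC25A42, SLC25A15 and SLC25A41, whose probes were dim on both arrays. It also limits SLC25A13, SLC25A14, SLC25A40 and SLC25A46, with no measured probe above a net signal of 31 on either array. SLC25A21 read only 22 net on the mastitis array, and SLC25A36 read 47 net on the normal array. None of these carriers, nor SLC25A12 and SLC25A30, had a value where both arrays had to reach a net signal of 50. No paired analysis was possible because each condition has 1 array, and leaving out an array leaves no comparison.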

Other observations

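Some probes outside the rule match carriers of the family by the array's own annotation of the best sequence hit or by their description. The probe matched to SLC25A10, the dicarboxylate carrier, read 1559 net in mastitis tissue and 926 net in normal tissue, a log2 ratio of 0.04. The probe matched to SLC25A32, a carrier of folate and flavin, was measured on the mastitis array alone, at 10 net against 6 net. The probes of LOC615258 and LOC616319, described as similar to SLC25 carriers, were not above background on either array.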
